A study of Mus musculus with 5 samples.

Results

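The genes described here were 8 of the 27998 genes counted, namely Ly6e, Ifi27l2a, Ifit1, Ifit3, Isg15, Irf7, Bst2 and Ifitm3, which are known as interferon-response genes in mouse cells. They were picked by symbol with their values in these libraries already known, since Ly6e and Ifi27l2a had been seen at a high level in the mural cells of the injured disc. Their levels in the injured library are therefore given as a description with no test. The label "interferon-response" held for the injured disc only in part. Isg15, Ifi27l2a and Ly6e stood above every normal stage in several cell classes. Ifit1 and Ifit3 did not stand clear of the normal range in any class. Of the genes of wider interferon lists, 7 of 38 lay above that range in synovial lining fibroblasts, beside 12.5% of all genes. Only 1 was at least 1.5 times the highest normal level, beside 2.32% of all genes. The mean level that admitted the 38 genes took in the injured library. In the other classes described the share of list genes above the normal range was near or below that of all genes. The genes are therefore called the 8 listed genes.

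The libraries were single-cell RNA-seq profiles of the temporomandibular joint (TMJ) disc, the fibrocartilage plate between the jaw condyle and the skull, from C57BL/6 mice labelled wild type. Discs of untreated mice were taken at the ages of 3 d, 3 w and 16 w, and in old mice at 78 w. The injured disc came from mice operated on at 5 w, in which the anterior band of the right disc was injured with a 31 Gauge needle, and it was collected 2 w later, at 7 w. For the injury model the study's methods name Myh11-CreER+; Tm fl/- mice. These carry a tamoxifen-driven Cre from a promoter of smooth muscle and mural cells with a red reporter. The methods place this transgene on the Y chromosome and name only males for tracing. The injured library had Xist RNA and almost no RNA of Y-linked genes (values below), so its cells read as female. Mice with that transgene are therefore unlikely to have given the library, though its source animals were not stated. Per the study's methods male and female pups were joined in the 3 d suspension and the older untreated mice were all male. The labels and methods did not state the sex of the injured mice or the number of animals in a library. Each condition was 1 library, with no sham-operated and no age-matched library, so injury, age, sex and the library itself cannot be told apart, and no test between conditions was possible.

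Interferons are secreted proteins that cells release when nucleic acid sensors find foreign or misplaced RNA or DNA. Type I interferon binds the receptor pair Ifnar1 and Ifnar2, and signalling through the receptor's kinases leads to binding at a promoter element, the interferon-stimulated response element (ISRE). Among the 8 listed genes Irf7 encodes a transcription factor that amplifies interferon production, Isg15 a ubiquitin-like protein that is attached to other proteins, and Ifit1 and Ifit3 proteins that bind viral RNA or support that binding. Bst2 (tetherin) and Ifitm3 act at membranes, holding budding virus and hindering virus entry. Ly6e encodes a GPI-anchored surface protein of the Ly6 family, and Ifi27l2a a small membrane protein. In vessels, mural cells are the pericytes and smooth muscle cells that wrap the endothelium.

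The position of each gene was taken from the GENCODE M21 annotation of GRCm38, the build named mm10 in the processing notes. Ly6e spans chr15:74955051-74959905 and Ifit3 and Ifit1, close neighbours, span chr19:34583531-34588731 and chr19:34640871-34650009, all on the + strand. On the − strand lie Ifi27l2a at chr12:103442167-103443680, Isg15 at chr4:156199424-156200818, Bst2 at chr8:71534255-71537456, Ifitm3 at chr7:141009586-141010770 and Irf7 at chr7:141262706-141266481. Irf7 overlaps Phrf1, a gene on the other strand. Of the 60-base words in the last 500 bases of its transcripts, Ifit3 shares 12.9% with its near copy Ifit3b and Ifitm3 shares 7.71% with 5 other genes, so part of their 3′ reads could have been split or dropped in counting. The other 6 genes share none.

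The promoter sequence shows which of the genes carry an ISRE core close to their start. RefSeq promoters of GRCm38.p6, running from 250 bases before to 50 after the gene start, were matched for 6 of the 8 genes. Ly6e and Ifi27l2a had no entry. The core was searched as GAAANNGAAA on both strands, which reads TTTCNNTTTC on the other strand. It was found in 5 of the 6 promoters and in 1131 of 32851 promoters of the table, 3.44%. The windows below run from 170 to 51 bases before the start, 5′ to 3′ on the gene's own strand, and capitals mark the matches. Ifit1, Ifit3, Isg15 and Bst2 are shown because each holds the core while their injured levels lay at different places relative to the normal range, and Irf7 because its promoter entry holds none.
Ifit1 (chr19:34640719-34640838, +): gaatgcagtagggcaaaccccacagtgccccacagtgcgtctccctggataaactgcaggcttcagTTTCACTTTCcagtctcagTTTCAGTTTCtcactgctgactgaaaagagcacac
Ifit3 (chr19:34583359-34583478, +): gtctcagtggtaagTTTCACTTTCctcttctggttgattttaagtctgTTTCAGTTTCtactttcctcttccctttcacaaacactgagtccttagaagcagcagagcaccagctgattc
Isg15 (chr4:156200869-156200988, −): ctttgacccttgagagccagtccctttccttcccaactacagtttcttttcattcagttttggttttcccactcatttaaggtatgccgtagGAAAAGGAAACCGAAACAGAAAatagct
Bst2 (chr8:71537523-71537642, −): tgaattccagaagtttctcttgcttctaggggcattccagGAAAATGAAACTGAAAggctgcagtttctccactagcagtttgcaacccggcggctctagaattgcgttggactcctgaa
Irf7 (chr7:141266475-141266594, −): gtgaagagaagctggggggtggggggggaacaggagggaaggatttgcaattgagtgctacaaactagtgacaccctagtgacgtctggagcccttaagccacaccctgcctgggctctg

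Ifit1 and Ifit3 hold 2 separate matches each, starting 104 and 85 bases before the start in Ifit1 and 156 and 122 bases before it in Ifit3. Isg15 holds 3 overlapping matches at 78, 72 and 66 bases and Bst2 2 overlapping ones at 130 and 124 bases. In Ifitm3 both matches lie just after the start, at 2 and 19 bases. A match is a stretch of letters, not a measured binding site. In other lists the core was found in 17 of 45 promoters of type I effector genes (37.8%), in 10 of 15 promoters of interferon gamma-type genes (66.7%) and in 0 of 10 promoters of Ly6 family genes.

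Counts were unique molecular identifiers (UMIs), each marking 1 captured RNA molecule. The libraries held between 8467 and 15169 barcodes and between 31585993 and 125427849 UMIs. The injured library was the shallowest, with a median of 3299 UMIs per cell against 7721 to 12496 in the normal libraries. It also stood apart in Malat1, a nuclear RNA, at 62387 CPM (counts scaled to a common library total) against 16456 to 45209. Its Xist level was 644 CPM with 1 UMI over 4 Y-linked genes, while the 3 w, 16 w and 78 w libraries had at most 0.337 CPM of Xist and at least 15920 UMIs of the Y-linked genes. By these genes the injured cells read as female. Any pair of libraries shared 19 to 39 barcodes, at most 0.415% of the smaller library.

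Cells were clustered without the 8 listed genes and classes were named from marker genes. All class names below mean cells like that type by these markers. In the injured library there were 6906 stromal cells (Col1a1, Dcn), 463 macrophages (C1qa, Csf1r), 387 endothelial cells (Pecam1, Cdh5), 156 synovial lining fibroblasts (Prg4, Tspan15) and 115 mural cells (Rgs5, Myh11). The normal libraries held 242 to 350 mural cells each. Clustering without integration of the libraries gave a synovial lining cluster of 3712 cells, 15 from the injured library and 0 from 3 d. The injured and 3 d cells of that class, and its ratios below, thus rest on the integration. Levels are CPM, that is UMIs of the gene scaled to all UMIs of that class in that library, so 1 UMI in injured mural cells is worth 3.05 CPM. Intervals are 95% and cover counting error only, and the interval of a ratio to the highest normal library takes no account of that library having been picked as the highest.

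Ly6e and Ifi27l2a in mural cells, the values by which the genes were chosen, had these levels. Ly6e was at 26.4 CPM at 3 d, 31.9 at 3 w, 23.9 at 16 w, 19.6 at 78 w and 155 (116 to 204, 51 UMIs) in the injured disc. Ifi27l2a was at 58.4, 5.31, 47.3 and 31.6 CPM at the normal stages and at 253 (202 to 314, 83 UMIs) in the injured disc. The injured value lay above all 4 normal values for both genes, by 4.88 times for Ly6e (3.39 to 6.96) and 4.34 times for Ifi27l2a (3.31 to 5.64).

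Isg15 was the third of the listed genes to stand above the normal range in mural cells. It was at 11.6 CPM at 3 d, 77.5 at 3 w, 56.0 at 16 w, 65.7 at 78 w and 198 (153 to 253, 65 UMIs) after injury, 2.56 times the 3 w level (1.91 to 3.39). All 5583 genes with a mean of at least 20 CPM in mural cells were ordered by the ratio of injured to highest normal level. Ly6e stood at place 4, Ifi27l2a at place 9 and Isg15 at place 27. Ly6e and Ifi27l2a were picked for being high in these cells, so nothing is read from their places. The other 5 genes did not lie above the 4 normal values. Bst2 was at 107 CPM after injury and 43.5 to 120.2 CPM at the normal stages, with the top of that range at 3 d, and its ratio of 0.89 became 1.54 without the 3 d library. Ifitm3 was at 1079 against 1028 to 1583, and Irf7 at 24.4 (8 UMIs) against 8.16 to 31.5. Ifit1 had 2 UMIs in the injured mural cells (6.10 CPM) and Ifit3 1 UMI (3.05 CPM), so Ifit3 lay below the lowest normal value, 3.67 CPM, by less than 1 UMI.

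**Figure D1:**
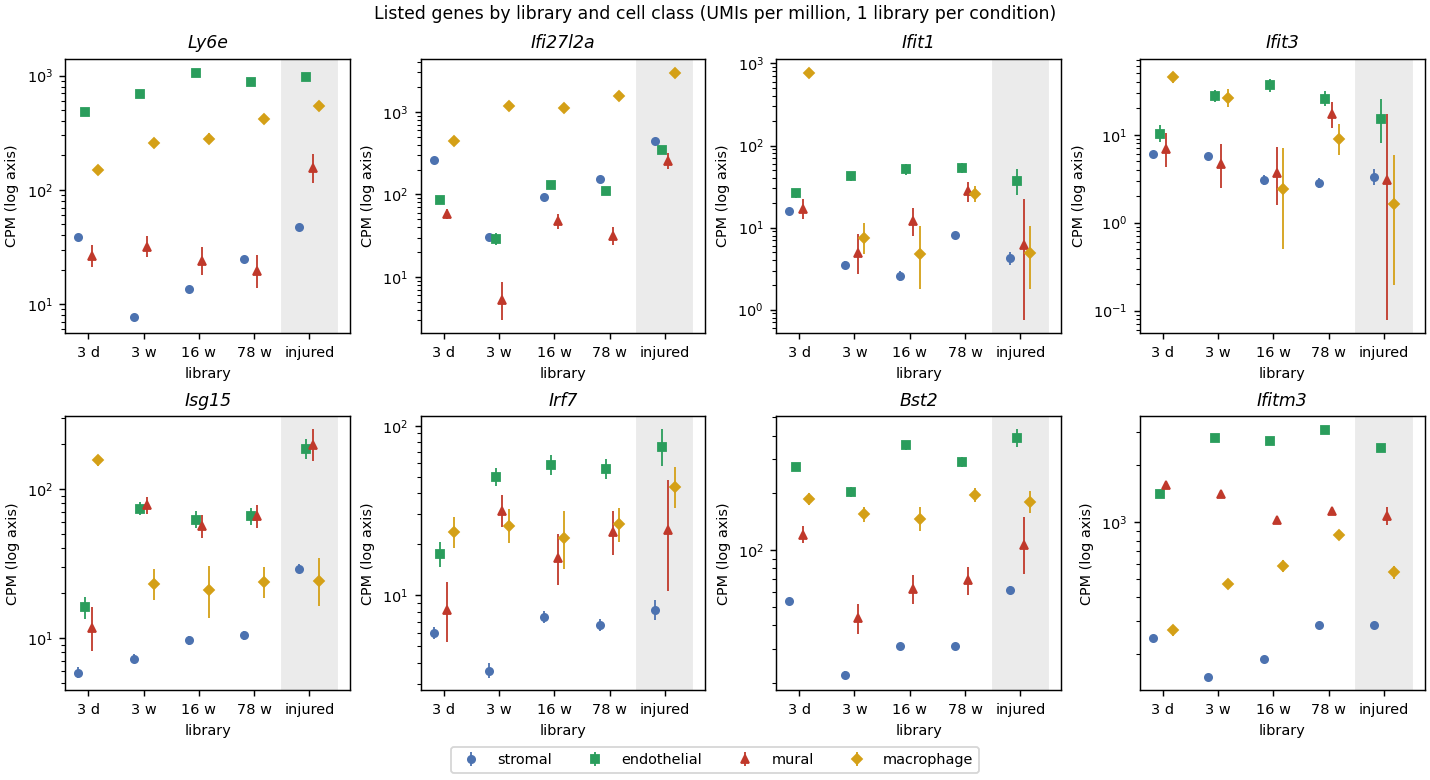
Level of each of the 8 listed genes (CPM, log axis) in each library (3 d, 3 w, 16 w, 78 w and injured) for stromal, endothelial, mural and macrophage classes, with bars showing 95% Poisson intervals. In mural cells the injured point of Ly6e (155), Ifi27l2a (253) and Isg15 (198) sits above all 4 normal points, while in macrophages the highest Ifit1 (769) and Isg15 (155) points are those at 3 d.

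Over the 5 classes described the count of listed genes above the highest normal library ran from 3 to 6 of 8. In mural cells 3 of 8 lay above and 1, Ifit3, below the normal range, where 14.8% of all genes tested lay above and 31.0% below. All 3 were at least 1.5 times the highest normal level, as were 3.64% of all genes. In stromal cells 6 of 8 lay above and 2 passed the ratio of 1.5, beside 13.0% and 2.83% of all genes, and none lay below, beside 29.8%. In endothelial cells 4 of 8 lay above and 2 passed 1.5, beside 12.3% and 2.25% of all genes, with none below, beside 32.6%. In macrophages 3 of 8 lay above, 2 of them past 1.5, beside 16.3% and 3.54%, and 1, again Ifit3, lay below, beside 30.4%. In synovial lining fibroblasts 6 of 8 lay above and 4 passed 1.5, beside 12.5% and 2.32%, with none below, beside 41.1%. These counts take in ratios of 1.00, Ifitm3 in stromal cells and Ifit1 in synovial lining fibroblasts (0.44 to 2.03). The shares of all genes were taken over genes with a mean of at least 20 CPM, which 4 of the 8 listed genes reached in stromal cells (neither Isg15 nor Irf7 did), 8 in endothelial cells, 6 in mural cells, 7 in macrophages and 4 in synovial lining fibroblasts. Of those, 4, 4, 3, 3 and 3 lay above, in the same order of classes. Because the genes were chosen on this contrast, nothing is read from these counts.

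**Figure D2:**
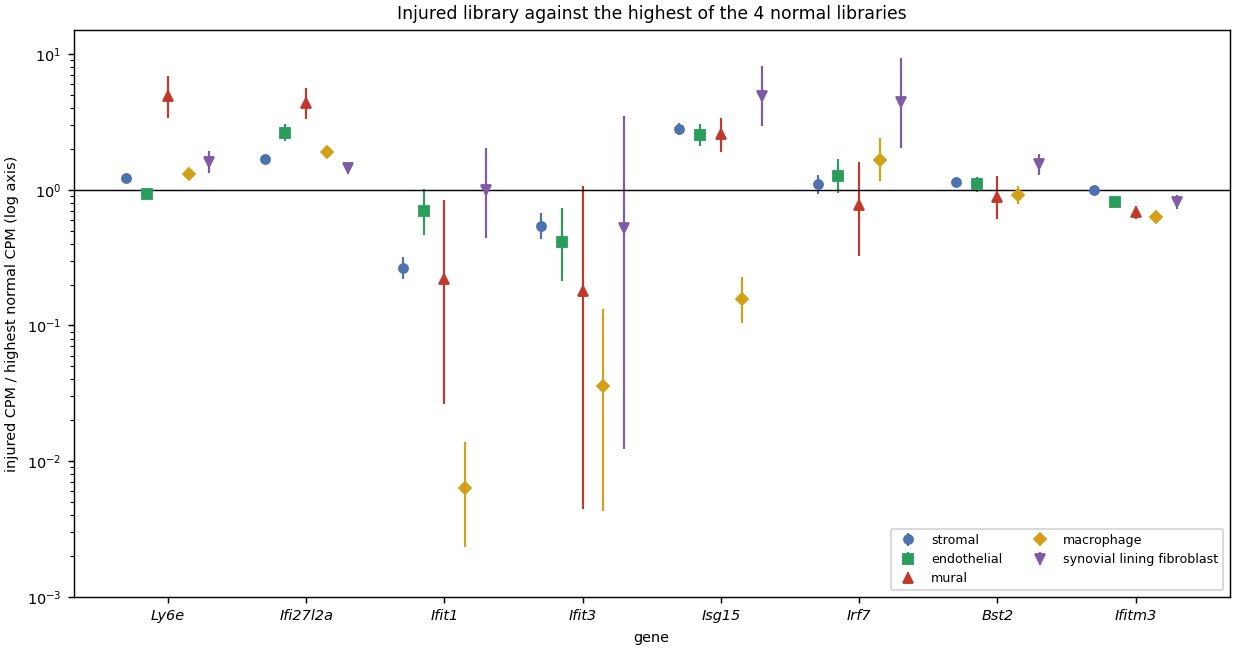
Ratio of the injured level to the highest of the 4 normal levels (log axis, 1 marked by a line) for each listed gene in 5 cell classes, with 95% intervals for counting error. Ifi27l2a lies above 1 in all 5 classes, from 1.44 in synovial lining fibroblasts to 4.34 in mural cells, and Isg15 in all but macrophages, where it is 0.16.

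The median over the 8 genes of the log2 ratio of injured to the geometric mean of the normal levels was 0.67 in stromal cells, 0.45 in endothelial cells, 0.52 in mural cells, 0.10 in macrophages and 1.10 in synovial lining fibroblasts. Over all genes with a mean of at least 20 CPM in the class the median was below 0, from −0.26 in synovial lining fibroblasts to −0.14 in macrophages. The 8 genes were taken whatever their mean and were chosen on this contrast, so nothing is read from the difference.

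Irf7, the transcription factor of the set, was above every normal stage in 4 of the 5 classes, in stromal and endothelial cells by less than the counting interval. In endothelial cells it was at 17.4, 50.02, 59.0 and 55.9 CPM at the 4 normal stages in order of age and at 75.1 after injury, a ratio of 1.27 whose interval (0.95 to 1.68) included 1. In macrophages it was at 23.5, 25.8, 21.7 and 26.2 CPM and then at 43.7, a ratio of 1.67 (1.15 to 2.39). Stromal cells had 3.60 to 7.48 CPM at the normal stages and 8.20 after injury (ratio 1.10, 0.94 to 1.28). In the synovial lining fibroblasts, a class that rests on the integration, Irf7 had 13 UMIs after injury. That was 22.5 CPM against at most 5.10 at the normal stages (ratio 4.42, 2.02 to 9.33).

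Isg15 was higher after injury than at any normal stage in 4 of the 5 classes. Stromal cells carried 5.85 CPM at 3 d, 7.25 at 3 w, 9.64 at 16 w, 10.4 at 78 w and 29.1 after injury, 2.80 times the 78 w level (2.55 to 3.08). Endothelial cells carried 16.0, 73.8, 62.2 and 65.4 CPM and then 186, which was 2.52 times the 3 w level (2.09 to 3.03). The 3 d library was the lowest in both classes. In synovial lining fibroblasts Isg15 had 0 UMIs at 3 d, where 3 UMIs would be 1.602 CPM, 2.16 to 10.2 CPM at the other normal stages and 50.2 CPM (29 UMIs) after injury, a ratio of 4.92 (2.94 to 8.14). Macrophages were the exception. There Isg15 was highest at 3 d, at 155 CPM, and between 20.9 and 24.3 in the other 4 libraries, with the injured library at 24.3.

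Ifit1 and Ifit3 did not share the position of Isg15. In macrophages Ifit1 was at 769 CPM at 3 d, 7.56 at 3 w, 4.81 at 16 w, 25.9 at 78 w and 4.85 after injury. Ifit3 was at 45.1, 26.4, 2.41 and 8.96 CPM in macrophages at the normal stages and at 1.62 after injury, below all of them but on few UMIs. The macrophage values at 3 w rested on a single cell, which held 77.9% of the Ifit3 UMIs, 68.2% of the Ifit1 UMIs and 61.2% of the Isg15 UMIs. At 3 d the cell with most Ifit1 UMIs held 5.0% of them.

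In endothelial cells Ifit1 was at 26.2, 42.0, 51.3 and 52.8 CPM at the normal stages and at 37.0 after injury, and Ifit3 at 10.3, 27.5, 36.4 and 25.7 and then at 15.03. The injured value lay within the normal range for both. In stromal cells Ifit1 was at 4.22 CPM after injury against 2.60 to 15.9, with the top of the range at 3 d, and Ifit3 at 3.30 against 2.84 to 6.07. These are the same 2 genes whose promoters, printed above, carry the core at 2 separate places.

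Bst2 and Ifitm3, the membrane restriction factors, lay near or within the normal range in most classes. Bst2 in stromal cells was at 54.0, 22.04, 31.1 and 31.0 CPM and at 61.5 after injury, 1.14 times the 3 d level (1.08 to 1.204), but 0.99 times when mitochondrial, ribosomal protein and haemoglobin genes were left out of the totals. In endothelial cells it was at 389.5 CPM after injury against 202 to 355 (ratio 1.10, 0.97 to 1.24), and in macrophages at 179 against 146 to 195. In synovial lining fibroblasts it reached 291 CPM against 137 to 189, 1.54 times (1.29 to 1.82).

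Ifitm3 in endothelial cells was at 1405, 2784, 2688 and 3064 CPM and at 2485 after injury, so the 3 d library was the low one. In stromal cells the injured level, 287 CPM, and the 78 w level, 286 CPM, did not differ beyond counting error (ratio 1.00, 0.98 to 1.03). In macrophages Ifitm3 went from 267 CPM at 3 d through 471 and 589 to 854 at 78 w and was at 542 after injury.

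Ly6e was highest in endothelial cells in every library, where it was at 479, 686, 1053 and 882 CPM at the normal stages and at 979 after injury, within that range but 1.11 times its top without the 16 w library. Macrophages came next at 3 w, 16 w, 78 w and in the injured library, with 149.7 CPM at 3 d, 257 at 3 w, 281 at 16 w, 415 at 78 w and 544 after injury, 1.31 times the 78 w level (1.19 to 1.44). At 3 d the synovial lining fibroblasts came before them, at 179 CPM. Those cells carried 117 to 179 CPM at the normal stages and 288 after injury (ratio 1.603, 1.32 to 1.94). Stromal cells had 38.9, 7.67, 13.5 and 24.7 CPM and then 47.4, a ratio to 3 d of 1.22 (1.14 to 1.29). The normal ranges of stromal and mural cells overlapped, so their order differed between libraries. In the injured library the mural level was the higher, 155 (116 to 204) against 47.4 CPM.

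Ifi27l2a was above every normal stage in each of the 5 classes. In stromal, endothelial, mural and macrophage cells the macrophages had the highest level in every library, at 447 CPM at 3 d, 1169 at 3 w, 1100.3 at 16 w, 1557 at 78 w and 2981 after injury, 1.91 times the 78 w level (1.83 to 2.00). Stromal cells were at 261, 30.1, 93.2 and 155 CPM and then at 441, 1.69 times the 3 d level (1.66 to 1.73). Endothelial cells were at 86.2, 28.8, 130.3 and 111 CPM and then at 344, 2.64 times the 16 w level (2.28 to 3.06).

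The 3 w library was the lowest in stromal, endothelial and mural cells. Against the 3 w and 16 w libraries alone the ratio of Ifi27l2a in stromal cells was 4.74. In the synovial lining fibroblasts Ifi27l2a was at 783 CPM at 3 d, 42.1 at 3 w, 13.8 at 16 w, 49.2 at 78 w and 1126 after injury, so the injured and 3 d libraries stood far from the other 3. By place among all genes tested in endothelial cells, Ifi27l2a was 19 and Isg15 23 of 5813.

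The stromal class was made of 3 clusters, and the genes differed among them. Cluster 1, led by Cytl1, Ibsp and Cilp2, had 21645 cells over the 5 libraries. There Ifi27l2a was at 432 CPM at 3 d, 2.80 at 3 w, 8.005 at 16 w, 10.7 at 78 w and 101 after injury, below the 3 d level though far above the rest. Cluster 2, led by Coch, Spp1 and Angptl7, had 12626 cells and carried 190, 21.2, 40.4 and 161 CPM and then 483, 2.54 times the highest.

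Cluster 3, with 7723 cells, had the highest stromal level of Ifi27l2a in every library but 3 d, where cluster 1 was higher. It had 277, 286, 1030 and 1077 CPM at the normal stages and 2046 after injury, 1.90 times the 78 w level. Isg15 lay above the normal range in all 3 clusters, with ratios of 2.41, 2.19 and 2.68. Ly6e lay above it in clusters 2 and 3, with ratios of 1.61 and 1.196, and within it in cluster 1, where 3 d had 33.8 CPM and the injured library 20.6. The share of all genes above the highest normal library was 13.3%, 13.8% and 13.2% in the 3 clusters.

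The mural class of the injured library held more RNA of other cell types than the normal ones. The summed stromal markers were at 19467 CPM there and at 8475 to 15546 at the normal stages, with all 8 markers present. Macrophage markers were at 57.9 CPM against 16.98 to 34.1, with 7 of 10 present. Endothelial markers were at 323 CPM against 97.3 to 389 and mural markers at 11772 against 11752 to 22129, at the low end. Markers of T or NK cells, neutrophils, mast cells and plasmacytoid dendritic cells had 0 UMIs. The part of this in the mural levels of the 8 genes was not tested as such, but some measurements bear on it.

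Ly6e was counted 0.00799 times per stromal-marker UMI in injured mural cells and 0.000827 times in injured stromal cells, and Isg15 0.0102 and 0.000509 times. For Ifi27l2a the difference was smaller, with 0.0130 in injured mural and 0.00771 in injured stromal cells. Ifi27l2a was counted 4.37 times per macrophage-marker UMI in injured mural cells and 0.137 times in injured macrophages. Ly6e per endothelial-marker UMI was 0.481 in injured mural and 0.259 in injured endothelial cells. Each ratio was higher in mural cells than in the cell type that defines the marker list. Per stromal-marker UMI, injured synovial lining fibroblasts had 0.0156 for Ly6e and 0.0612 for Ifi27l2a, above the mural values. For Isg15 they had 0.00273, below the mural value. Each ratio takes a single source alone, so it cannot settle the part of RNA from several sources together, which was not tested.

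The same comparison was made in the mural cells with no UMI of any endothelial or macrophage marker, 75 in the injured library and 112 to 140 at each normal stage. Ly6e was at 87.6 CPM there against 2.86 to 15.8, Ifi27l2a at 169.97 against 2.86 to 40.1 and Isg15 at 211 against 4.58 to 66.6. All 3 again lay above the 4 normal values, and Ly6e and Ifi27l2a were lower than over all mural cells. The choice was less strict in the injured library, whose cells were shallower and so more easily lacked a marker UMI. It kept 75 of 115 injured cells against 140 of 350, 125 of 273, 112 of 242 and 140 of 277 normal ones, by age. Stromal RNA was not filtered.

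Leaving out the mural sub-clusters led by stromal or endothelial markers kept 83 injured cells and 208 to 299 normal ones. Ly6e was then at 116 CPM against 3.41 to 20.6, a ratio of 5.62 (3.09 to 10.1). Ifi27l2a was at 312 against 3.98 to 38.4, a ratio of 8.11 (5.57 to 11.8), and Isg15 at 236 against 15.3 to 89.9, a ratio of 2.63 (1.86 to 3.66). In this set the endothelial markers were at 141 CPM after injury against 110 to 153, while the stromal markers remained higher, at 8698 against 1654 to 5134. Among the sub-clusters kept, 1 had at least 20 cells in every library, and it held 36 of the 115 injured mural cells against 27 of 350 in the 3 d library and, by age, 91 of 273, 30 of 242 and 43 of 277 in the older normal ones. Its leading genes were Cxcl9, Ccl11, Nts and Cxcl5. The ratios within it were smaller.

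In that sub-cluster Ly6e was at 10.48, 4.41, 53.01 and 41.1 CPM at the normal stages and at 137 (65.7 to 252, 10 UMIs) after injury, 2.59 times the 16 w level (0.98 to 6.71). Ifi27l2a was at 15.7, 1.47, 149 and 29.9 CPM and then at 206 (115 to 339, 15 UMIs), a ratio of 1.38 (0.69 to 2.63). Isg15 had 0 UMIs at 3 d, 122, 198 and 250 CPM at the later stages and 315 (200 to 473, 23 UMIs) after injury, a ratio of 1.26 (0.75 to 2.05). The injured value was the highest for each gene, but every interval of the ratio included 1.

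**Figure D3:**
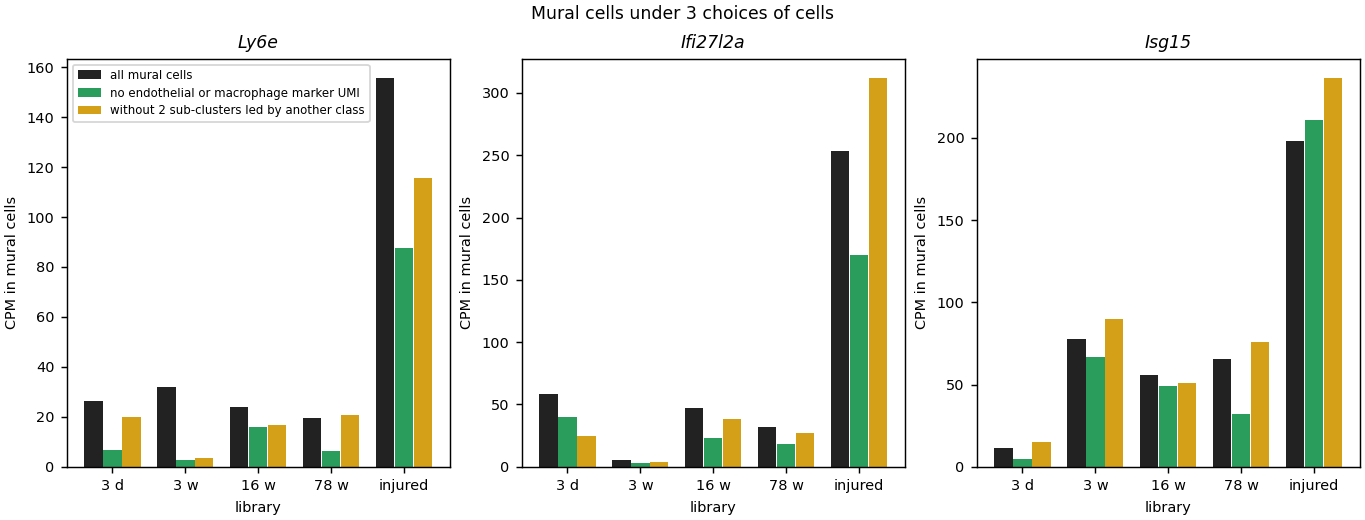
Level of Ly6e, Ifi27l2a and Isg15 (CPM, bars from 0) in mural cells of the 5 libraries for all mural cells, for those with no endothelial or macrophage UMI, and without the 2 sub-clusters led by markers of another class. The injured bar is the tallest for each gene in each choice of cells, with Ly6e at 155, 87.6 and 116.

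Macrophage markers were also more frequent in the other injured classes. They summed to 142 CPM in stromal cells against 14.5 to 31.0 at the normal stages and to 193 CPM in endothelial cells against 22.4 to 42.5. Ifi27l2a was counted 3.12 times per macrophage-marker UMI in injured stromal cells and 1.78 times in injured endothelial cells, above the 0.137 of the macrophages. The injured endothelial class also held more stromal-marker RNA, at 13324 CPM against 6145 to 11644, and less endothelial-marker RNA, at 3778 CPM against 4503 to 5738. Erythroid markers were at 9138 CPM in it, against 9.53 to 22.4 at 3 w, 16 w and 78 w and 21834 at 3 d. The part of these in the endothelial levels was not tested. In 1 endothelial sub-cluster, with 40 injured cells, Ifi27l2a was at 420 CPM after injury, within the normal range, whose top was 521 CPM at 16 w. The macrophage class itself was uneven, because 193 of its 463 injured cells fell in a sub-cluster led by stromal markers, which held 14 cells of the normal libraries. Without such sub-clusters the macrophage ratios were 1.28 for Ly6e, 1.85 for Ifi27l2a and 1.98 (1.18 to 3.40) for Irf7, close to those with all cells.

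The share of cells with at least 1 UMI of a gene was compared after every cell had been thinned to 1000 UMIs, with shallower cells left out. Among injured mural cells 13 of 102 carried Ly6e, 12.7% (6.96% to 20.8%), against 0.867% to 3.72% at the normal stages. Ifi27l2a was found in 10.8% (5.51% to 18.5%) against 0.366% to 4.55%, and Isg15 in 20.6% (13.2% to 29.7%) against 1.16% to 8.79%. The interval of the injured share lay above the 4 normal shares for each of the 3 genes. It covers only the draw of cells within 1 library, and Ly6e and Ifi27l2a were picked for these cells. Nothing is therefore read from it about injury. Without thinning the injured shares were 24.3%, 24.3% and 34.8%.

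Erythroid cells, 212 in the injured library, were taken as a rough measure of the background from free RNA. Clustering without integration gave 76 injured erythroid cells, and 149 injured cells in an unnamed cluster led by Gm10800 and Gm26870. Both genes were also among the leading genes of the erythroid class used here, so its name is uncertain for part of the cells. Whether erythroid cells also express the 8 listed genes themselves was not tested. In 42 thinned erythroid cells of the injured library Ly6e and Isg15 were found in 0%, with an upper bound of 8.41%, and Ifi27l2a in 4.76% (0.582% to 16.2%). The intervals for Ly6e and Ifi27l2a overlapped those of the injured mural cells, so at this depth only the mural share of Isg15 was separated from the erythroid share. The unthinned levels were further apart, with Ifi27l2a at 41.5 CPM (7 UMIs, 16.7 to 85.4), Isg15 at 29.6 CPM (5 UMIs, 9.62 to 69.1) and Ly6e at 5.92 CPM (1 UMI, 0.15 to 33.0) in injured erythroid cells.

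In the other classes the thinned shares followed the levels. Ifi27l2a was found in 78.8% of injured macrophages against 30.2% to 54.3%, in 19.6% of injured endothelial cells against 2.04% to 7.61%, and in 20.5% of injured stromal cells against 2.37% to 16.6%. Isg15 was found in 14.2% of injured endothelial cells against 1.78% to 7.33%, and in 2.68% of injured stromal cells against 0.374% to 0.928%.

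**Figure D4:**
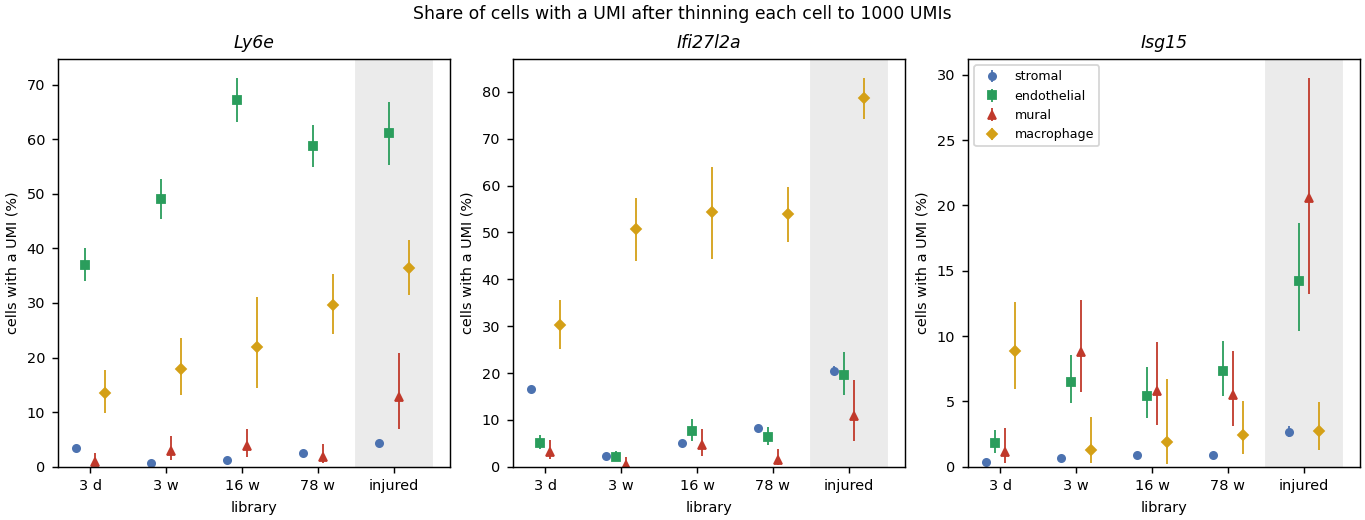
Share of cells (%) with at least 1 UMI of Ly6e, Ifi27l2a or Isg15 in each library, by cell class, after thinning each cell to 1000 UMIs, with 95% Clopper-Pearson intervals. Injured mural cells reach 12.7%, 10.8% and 20.6%, above their 4 normal libraries.

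UMIs of the genes were unevenly spread over the injured mural cells. A single cell held 21 of the 83 Ifi27l2a UMIs, 25.3%, and the 5 highest cells held 57.8%. For Ly6e the highest cell held 9.80% and the 5 highest 37.3%. Cells with at least 3 of the 8 genes made up 11.8% of thinned injured mural cells against 2.93% to 3.47% at the normal stages. The same share was 26.6% against 10.48% to 18.3% in macrophages, 35.8% against 11.5% to 30.4% in endothelial cells and 3.08% against 0.290% to 1.67% in stromal cells.

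The other genes of the pathway were taken from 9 lists of 162 genes, of which 157 were in the files. Only those with a mean of at least 20 CPM in a class were compared. Of these, 9 of 54 lay above the normal range in mural cells and 11 below. Some of the 9 reached that mean only through the injured library, and with the mean taken over the normal libraries 6 of 52 lay above, 11.5%, beside 13.3% of all genes. The counts were 4 and 6 of 30 in stromal cells, 1 and 16 of 82 in endothelial cells and 10 and 27 of 68 in macrophages. As shares above, these were 16.7%, 13.3%, 1.22% and 14.7%, in the order mural, stromal, endothelial and macrophage, beside the shares of all genes given above. Of all genes 31.0%, 29.8%, 32.6% and 30.4% lay below the range, in the same order. These shares were larger than those of the list genes below it, except in macrophages. The median log2 ratio over the list genes was −0.09 in mural, −0.15 in stromal, −0.33 in endothelial and −0.32 in macrophage cells, beside −0.15, −0.17, −0.21 and −0.14 over all genes. The list medians were near those of all genes in mural and stromal cells and below them in endothelial cells and macrophages. Synovial lining fibroblasts had 7 of 38 list genes above the range and 9 below, beside 12.5% and 41.1% of all genes. The mean there took in the injured library, and a count with the mean over the normal libraries was not made. Their list median was −0.005, beside −0.26 over all genes.

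**Figure D5:**
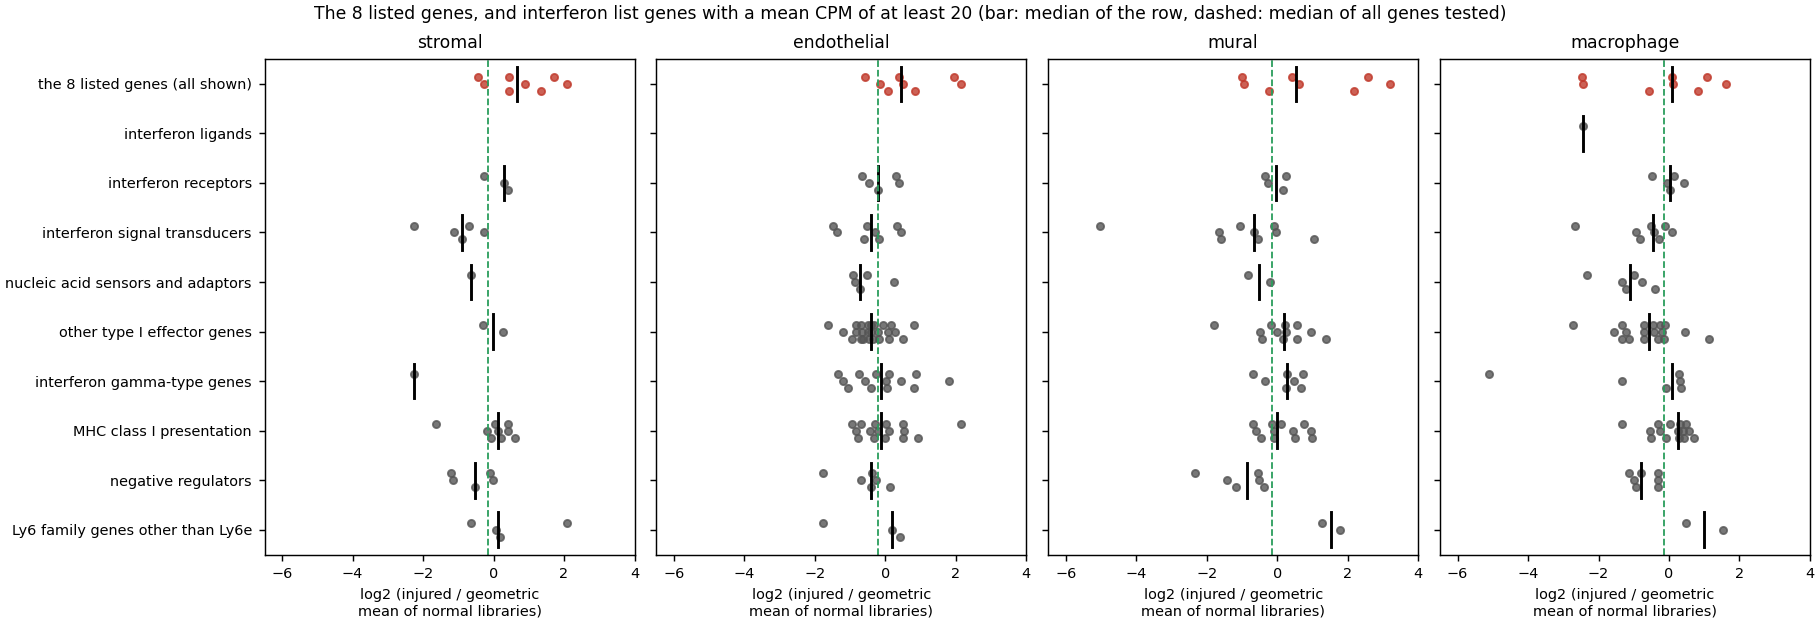
Log2 ratio of the injured level to the geometric mean of the 4 normal levels for the 8 listed genes and for genes of the wider interferon lists with at least 20 CPM, by cell class. Bars mark the median of a group and the dashed line the median of all genes tested. The 8 listed genes, chosen on this contrast, have medians of 0.67, 0.45, 0.52 and 0.10 in stromal, endothelial, mural and macrophage cells. Those of the signal transducers (−0.90, −0.42, −0.66 and −0.46) lie below the dashed line.

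Ligands were scarce. The 21 interferon genes summed to 452 UMIs at 3 d, 40 at 3 w, 12 at 16 w, 25 at 78 w and 12 after injury, or 3.62, 0.319, 0.135, 0.237 and 0.380 CPM. Ifnb1, interferon beta, made up 416 of the UMIs at 3 d, and 404 of those were in macrophages. It had 2 UMIs in the injured library, both in endothelial cells. The library with most Ifnb1 was thus the one in which macrophage Ifit1 (769 CPM), Isg15 (155 CPM), Cxcl10 (2718 CPM) and Rsad2 (422 CPM) were highest, and it was not the injured one.

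Receptors and transducers gave few differences upward. Ifnar2, a chain of the type I receptor, was 1.07 times the highest normal level in stromal cells (1.03 to 1.13), and in mural cells none of 4 receptors tested left the normal range. Stat2, which binds the ISRE with Irf9, was at 33.5 CPM (11 UMIs) in injured mural cells against at most 21.6, a ratio of 1.56 whose interval (0.72 to 3.07) included 1, and it reached the mean of 20 CPM only through the injured library. Irf3, which switches on the interferon beta gene, had 0 UMIs in the injured mural cells, where 3 UMIs would be 9.15 CPM, against 27.5 to 36.6 CPM at the normal stages. It was also below the normal range in stromal cells (11.2 against at least 22.7 CPM) and endothelial cells (10.4 against at least 25.3 CPM).

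Irf1, a transcription factor induced by interferon gamma and by many other stimuli, was far lower in the injured library. In stromal cells it was at 46.9, 164, 98.5 and 73.6 CPM and then at 17.5, and in macrophages at 95.9, 138, 103 and 67.9 and then at 14.6. Cxcl10, a chemokine, was at 5.57 CPM in injured stromal cells against 16.1 to 66.8, and at 5.66 in injured macrophages against 84.5 to 2718. Socs3, a feedback inhibitor, was at 94.5 CPM in injured mural cells against 139 to 884. In the injured library these genes thus stood below the normal range in classes where Isg15, Ifi27l2a or Ly6e stood above it.

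Among the effector genes and the antigen presentation genes a few lay above. Lgals3bp, a secreted glycoprotein, was 1.69 times the highest normal level in macrophages (1.29 to 2.20). B2m, the light chain of MHC class I, was at 389, 632, 498 and 496 CPM in mural cells at the normal stages and at 835 after injury (ratio 1.32, 1.16 to 1.503). In stromal cells B2m was at 426 CPM against 255 to 399 (ratio 1.07). Psme1 and Psme2, proteasome activators, were 1.25 and 1.27 times the highest normal level in macrophages but below the normal range in mural cells, at 54.9 CPM each against at least 63.2 and 65.1, and Gbp7 in mural cells 1.42 times (0.70 to 2.63). Dtx3l, a ubiquitin ligase, was the only list gene above the range in endothelial cells, with a ratio of 1.12 (0.76 to 1.604). Ifih1, an RNA sensor, was lower than at every normal stage in macrophages. In macrophages 11 of 18 effector genes tested lay below the range and 2 above it, beside 30.4% and 16.3% of all genes. In mural cells 3 of 12 effector genes tested lay above the range, beside 14.8% of all genes, namely Phf11d, Lgals3bp and Ifi203. Lgals3bp was there 1.81 times the highest normal level (0.95 to 3.24) and reached the mean of 20 CPM only through the injured library. Another 3 lay below, beside 31.0% of all genes. These were Ifitm1 (88.4 against at least 96.9 CPM), Ifitm2 (582 against at least 622 CPM) and Slfn5 (12.2 against at least 25.1 CPM). The median log2 ratio of the 12 genes, Lgals3bp among them, was 0.19, beside −0.15 over all genes. It was not taken again with the mean over the normal libraries, so nothing is read from it.

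The relatives of Ly6e gave values beside it. Ly6a was at 28.9, 80.7, 26.6 and 66.2 CPM in mural cells and at 109.8 after injury, and Ly6c1 at 18.5, 113, 29.4 and 41.1 and then at 140.2, so both of the Ly6 family genes tested there lay above the normal range. For Ly6a the ratio was 1.36 with an interval of 0.93 to 1.94. Both genes are abundant in endothelial cells, where Ly6a was at 1349 CPM and Ly6c1 at 1486 in the injured library, within the normal range. In macrophages Ly6a was at 91.4 CPM against 24.1 to 37.6 (ratio 2.43, 1.85 to 3.19). Slurp1, a secreted member, was at 77.4 CPM in stromal cells against 2.96 to 35.7, 2.17 times the highest.

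The listed genes varied together only in part. Over 20 values, 4 classes by 5 libraries, the correlation of each gene's log2(CPM + 5) with the mean of the 8 was 0.95 for Bst2, 0.92 for Ly6e and 0.88 for Irf7, and 0.40 for Ifi27l2a. Each gene is itself part of that mean, and the points share cell types and libraries. Of 5832 genes compared, those most like the mean were Psmb8, Rtp4, Sp100, Lmo2 and Smagp, with r from 0.92 to 0.90. After each class had been centred on its own mean, Ifi27l2a went with Bst2 (r = 0.81) and Ly6e (r = 0.79), and Ifit1 with Ifit3 (r = 0.72), while Ifi27l2a and Ifit3 had r = −0.37. Other pairs lay between, such as Isg15 with Irf7 (r = 0.63) and Ly6e with Bst2 (r = 0.57). Ly6e and Ifi27l2a were picked for being high together in injured mural cells, which are among these 20 values.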

How the data were processed

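Cells digested from dissected discs were profiled with 10x 3′ v2 chemistry, 1 library per condition. The authors deposited raw UMI counts per gene and barcode. Their processing notes name Cell Ranger 3.1 and mm10, while the matrix headers name 4.0.0. The 78 w file carries another age in its name, and the label was followed. Depth ran from 31585993 to 125427849 UMIs per library.

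Barcodes were kept above 200 UMIs where mitochondrial UMIs made up no more than 30%. Cells of the 5 libraries were integrated and clustered in Seurat 5.3.0 (R 4.3.3; 2000 features, 30 dimensions, resolution 0.2), with the 8 listed genes, the interferon lists and Xist left out of the features. Clusters took class names from marker lists, and sub-clusters were made at resolution 0.3. UMIs were summed per class and library and expressed as CPM. Doublets were left in: the automatic scrublet threshold (scanpy 1.11.5) called at most 2 cells in a library, so an alternative left out 6.78% to 12.0% of cells by score. Intervals were exact Poisson, Clopper-Pearson or, for a ratio, exact binomial (scipy 1.17.1), at 95%, for counting error alone.

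Since every condition was a single library, there was no test between conditions, no p-value and no replicate error. A gene was called above or below when the injured level lay outside the 4 normal levels, and all-gene shares were taken over genes with a mean of at least 20 CPM in the class. Log2 ratios used a pseudocount of 1 CPM and likeness 5 CPM. Named genes of the lists were, per class, the 5 with the largest ratio to the highest normal level and the 3 with the smallest to the lowest. Other genes of the lists were named after their values were seen. The 8 genes, the lists and the comparisons were chosen with earlier results of these data known. Ratios and calls were tested on simulated class totals for mural cells, with 200 of 5583 genes changed 4-fold. Summing over cells was not tested. The simulated totals had counting error and the real depths but no other variation between libraries, so their rates need not hold for the real libraries. Of the unchanged genes 34.05% lay above the normal range and 1.635% passed the ratio of 1.5, which 100% of the changed genes passed. A level above the normal range thus does not by itself show a change. The intervals of the ratio to the 3 d library, fixed beforehand, covered the true ratio for 92.5% of the changed and 96.08% of the unchanged genes. Coverage of the ratio to the highest normal library was not tested. Alternatives are given in the closing section.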

Additional observations from a re-analysis of the deposited data

How the results depend on the processing

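No paired analysis was possible because each condition had 1 library and no result came from a test. The ratio of injured to highest normal level of Ly6e in mural cells was 4.88 and became 9.82 with cells gated by markers alone. That of Ifi27l2a in mural cells was 4.34 and became 5.93 without the cells of highest doublet score, 2.54 with each cell thinned to 1000 UMIs and 8.11 without the sub-clusters led by markers of another class. Among mural sub-clusters not led by markers of another class, a single one had enough cells in every library. There they were 2.59 for Ly6e and 1.38 for Ifi27l2a. The stromal-led mural sub-cluster also had enough cells. In it Ly6e was at 35.3 CPM (3 UMIs) after injury against 17.7 at 3 d, the highest normal stage. Ifi27l2a was at 165 CPM after injury against 141 at 3 d, again the highest. Leaving out 1 normal library at a time gave 4.88 to 5.90 for Ly6e and 4.34 to 5.35 for Ifi27l2a, and 6 to 6, 4 to 5, 3 to 4 and 3 to 4 listed genes above the normal range in stromal, endothelial, mural and macrophage cells.

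Against the 3 w and 16 w libraries only, 5 listed genes lay above in macrophages, and the share of all genes above was 24.7% in stromal, 22.6% in endothelial, 27.5% in mural and 27.9% in macrophage cells. Median-ratio scaling gave the injured library size factors of −0.11 to −0.17 on the log2 scale. Counts are divided by such a factor, so the injured levels rose. The share of all genes above was then 20.2%, 21.2% and 22.7% in stromal, endothelial and mural cells. The share of interferon list genes above in endothelial cells was 3.77% at a mean of at least 5 CPM. The thinned shares of injured mural cells, 12.7% for Ly6e and 10.8% for Ifi27l2a, were 24.3% and 24.3% without thinning, and 21.1% for Ifi27l2a at 2000 UMIs.

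Among values whose interval excluded 1, the direction turned for Ifit1 in stromal cells against 3 w and 16 w only (1.19), for Bst2 in stromal cells without mitochondrial, ribosomal protein and haemoglobin genes (0.99), and for Isg15 in macrophages against 3 w and 16 w only (1.05) and without 3 d (1.02), with 0.156 to 1.02 over the libraries left out. Other ratios also crossed 1, 22 values of 11 genes and classes with the former: in stromal cells Irf7 and Ifitm3, in endothelial cells Ly6e (1.06 to 1.14 under 4 alternatives), Irf7 and Bst2 (0.96 without the cells of highest doublet score), in mural cells Irf7 (1.04 without 3 w) and Bst2 (1.72 against 3 w and 16 w only, 1.31 in the sub-cluster), and in macrophages Bst2 (1.16 against 3 w and 16 w only). Leaving aside Ly6e and Ifi27l2a in mural cells, 337 of the single-gene values moved by less than the counting interval, 83 moved by more and 4 turned. The causes were not tested. The doublet, marker-free and sub-cluster choices and the mean over normal libraries were added after the data had been seen. As to depth, 1 UMI is 3.05 CPM in injured mural cells.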
